A study of Mus musculus with 20 samples.

Results

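The 8 genes described here encode the enzymes and the transporter through which myeloid cells handle arginine, itaconate and tryptophan. They were chosen by name: Arg1, Arg2, Nos2, Odc1, Slc7a2, Ass1, Acod1 and Il4i1. All 8 were present among the 15855 genes of the cultured cells and among the 15333 genes of the tumor cells. B-MF (B-cell derived macrophages) and Mo-MF (monocyte derived macrophages) were grown in vitro from mouse bone marrow (BM) B cells or from monocytes. Both groups had grown in the same kind of medium, conditioned by the breast cancer line 4T1.2. The third group was sorted from 4T1.2 tumors of mice and labelled as macrophages. Single-cell RNA-seq covered 2 B-MF libraries of 5237 and 5326 cells, 2 Mo-MF libraries of 4846 and 5389 cells, and 4 tumor libraries, numbered 2 to 5, of 3180, 2318, 2387 and 3000 cells. In addition, ATAC-seq peak lists of 12 libraries were read at the starts of the genes: 3 of BM CSF1R+ cells, 3 of BM CSF1R− cells, and as many of either kind from the spleen. The labels call those cells macrophages, whereas the text of the study describes them as B-cell precursors of untreated mice.

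Arginine enters macrophages through cationic transporters, among them the product of Slc7a2. Inside the cell it is hydrolyzed by the arginases Arg1 and Arg2 to urea and ornithine, or oxidized by the inducible nitric oxide synthase Nos2 to citrulline and nitric oxide, and Ass1 starts the return of citrulline to arginine. Odc1 makes the polyamine putrescine from ornithine, Acod1 makes itaconate from the citrate cycle intermediate cis-aconitate, and Il4i1 is a secreted oxidase of aromatic amino acids that yields ligands of the aryl hydrocarbon receptor. Arg1 is widely used as a marker of alternatively activated macrophages, Nos2 and Acod1 are induced by bacterial products and interferon, and Arg2 is the mitochondrial arginase.

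Levels are mean corrected counts per cell, that is, transcript counts that the authors had adjusted to a shared depth with SCTransform, and a cell was called positive at a corrected count of at least 1. Median corrected counts per cell were 18350 to 19469 in the cultures and 7651 to 8266 in the tumor libraries. The cultured and the tumor cells were corrected separately, so no test was made between them. The study describes the tumor libraries as cells of separate mice. Nothing in the labels says that the B-MF or the Mo-MF libraries came from separate animals or cultures, so p-values measure only the spread between these libraries. Binomial intervals and floors below cover counting error only. All 10 macrophage markers were found in both culture groups, with levels that summed to 314 to 326 (B-MF) and 621 to 630 (Mo-MF). Such a sum is weighted toward the most abundant markers and does not rank the groups as macrophages. Of the 10 markers, 7 and 9 were above the cluster average in clusters 0 and 1, chiefly of B-MF. In clusters 2, 3 and 4, chiefly of Mo-MF, 9, 5 and 8 were. The cultures were not pure: clusters that met the neutrophil markers held 10.4% and 9.59% of the Mo-MF cells, against 3 cells of the first B-MF library and none of the second. In the tumor libraries 2 to 5, such clusters held 35.5%, 62.3%, 46.8% and 55.1% of the cells and monocyte/macrophage-like clusters 61.6%, 32.4%, 46.2% and 38.7%, although the labels call all of them macrophages. The main results below are therefore also given without the neutrophil-like cells or by cell class. The neutrophil-like class of the cultures depends on the clustering resolution. It held clusters of 620 and 404 cells at 0.5, the setting used, but of 403 and 230 cells at 1. There a cluster of 391 cells met macrophage, neutrophil and osteoclast markers and stayed unnamed. Between 3 and 28 cell barcodes of a library recurred in another library of the same table.

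In the GENCODE annotation of GRCm38 (mm10), Arg1 lies at chr10:24915221-24927484 on the minus strand. All others are on the plus strand: Arg2 at chr12:79130777-79156301, Nos2 at chr11:78920787-78960254, Odc1 at chr12:17544794-17551505, Slc7a2 at chr8:40862396-40922308, Ass1 at chr2:31470207-31520672, Acod1 at chr14:103046977-103056573 and Il4i1 at chr7:44816387-44840809. Il4i1 shares its locus with Nup62 on the same strand and with Atf5 and Tbc1d17 on the opposite strand. On the opposite strand, Arg2 overlaps Vti1b and the antisense gene Gm48780, and Slc7a2 overlaps the long noncoding RNA gene Gm26584. Odc1 overlaps the snoRNA gene Gm22748 on the same strand. How reads from the shared stretches were assigned was not examined, so levels of genes with same-strand overlaps are less certain in that respect.

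Promoter sequences from RefSeq (GRCm38.p6) matched 4 of the 8 genes: Acod1, Ass1, Il4i1 and Odc1. Acod1 is shown for its motif matches, and Odc1 for contrast, as a promoter rich in G and C with none of the motifs searched. Both genes were read in every library. Each sequence is the 250 bases before the gene's start on the plus strand, chr14:103046762-103047011 for Acod1 and chr12:17544623-17544872 for Odc1, and the capitals mark a TATA box (TATAAA) and an NF-kB-type core (GGAANTTCC). For both genes the RefSeq start lies shortly downstream of the GENCODE start given above.

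Acod1: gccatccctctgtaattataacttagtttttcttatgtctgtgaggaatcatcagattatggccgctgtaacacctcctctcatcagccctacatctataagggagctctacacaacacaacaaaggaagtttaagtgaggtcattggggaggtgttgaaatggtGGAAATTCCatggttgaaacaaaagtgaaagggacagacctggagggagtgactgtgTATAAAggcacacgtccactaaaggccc

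Odc1: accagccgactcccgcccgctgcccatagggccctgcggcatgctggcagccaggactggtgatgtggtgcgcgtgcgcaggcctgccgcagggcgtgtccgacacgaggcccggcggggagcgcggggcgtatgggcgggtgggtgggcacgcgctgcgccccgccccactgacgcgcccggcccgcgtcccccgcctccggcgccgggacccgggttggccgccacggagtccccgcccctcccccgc

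The Acod1 promoter held 44.4% G or C and 2 CG dinucleotides, the Odc1 promoter 80.0% and 35. Over all 32851 promoters of the same length the medians were 52.4% and 6. Acod1 carried TATAAA 28 bases and GGAAATTCC 85 bases before its RefSeq start, and Odc1 carried none of the 6 motifs searched. The TATAAA of Acod1 lies after its GENCODE start. On both strands, TATAAA was in 12.4% and GGAANTTCC in 0.813% of all promoters. Of the other motifs, the E-box CACGTG (6.02% of promoters) was found 36 bases before the RefSeq start of Ass1, whose promoter held 75.6% G or C. The RefSeq start of Ass1 also lies downstream of its GENCODE start, and the E-box lies between these starts. TTCNNNGAA (7.02%), TTGCNNAA (9.56%) and TGANTCA (6.75%) were in none of the 4 promoters, and Il4i1 held no motif. The motifs were picked after the sequences had been seen, and a match in these letters is a description, not a site of binding.

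Both arginase genes were lower in B-MF. Arg1 had a mean corrected count of 0.0672 and 0.0481 in B-MF 1 and 2 and of 1.82 and 1.76 in Mo-MF 1 and 2, with no overlap, a level 31.1 times higher in Mo-MF. Cells positive for Arg1 made up 1.79% (95% Clopper-Pearson interval 1.45% to 2.19%) and 1.28% (0.993% to 1.62%) of the B-MF libraries and 19.8% (18.7% to 21.0%) and 21.1% (20.02% to 22.2%) of the Mo-MF libraries. Arg2 was more evenly read, with levels of 0.881 and 0.743 (B-MF) against 2.08 and 1.96 (Mo-MF), with positive cells at 41.1% and 34.5% against 65.0% and 63.0%. Mo-MF were thus higher for both arginases in every library, on the scale of corrected counts, which were not divided by length because the 3′ libraries read 1 end of each transcript. Arg2 was above Arg1 in all 4 libraries, but without the neutrophil-like clusters the order turned in Mo-MF, with Arg1 at 1.94 and 1.87 and Arg2 at 1.89 and 1.81. Slc7a2, the arginine transporter, followed the same direction at a low level, with 0.0703 and 0.0618 for B-MF against 0.164 and 0.139 for Mo-MF.

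Tested with limma on log2 of the mean plus 0.1 over the 8633 genes whose mean reached 0.1, 39.5% differed, with B-MF lower in 16.9% and higher in 22.6% of all genes, at an adjusted p under 0.05. Of the 8 genes, 4 passed the filter, of which 3 were lower and 1 was higher in B-MF. Arg1 was lower in B-MF by 3.59 ± 0.067 (SE) on the log2 scale (limma with Benjamini-Hochberg adjustment, adjusted p = 2.12e-08), a difference of the log2(value + 0.1) scale that understates low genes. Arg2 was lower by 1.22 ± 0.076 (limma, adjusted p = 8.04e-06) and Slc7a2 by 0.60 ± 0.063 (limma, adjusted p = 0.000173). Arg1 and Slc7a2 passed the filter only through Mo-MF, so their being among the genes that differed is partly set by the filter. Without the neutrophil-like clusters, with 37.8% of 8600 genes called, the limma difference was −3.67 for Arg1 (adjusted p = 4.84e-08), −1.10 for Arg2 (adjusted p = 1.92e-05) and −0.66 for Slc7a2 (adjusted p = 0.000187). In monocyte/macrophage-like clusters alone, with 34.8% of 8543 genes called, the limma difference was −3.77 for Arg1 (adjusted p = 4.25e-07), −1.08 for Arg2 (adjusted p = 9.48e-05) and −0.73 for Slc7a2 (adjusted p = 0.000242). Each of the 3 was thus lower in B-MF with and without those cells. The class rests on the grain of the clustering, because its cluster with the most Arg1 also carried osteoclast markers and was named osteoclast-like at the resolutions 0.25 and 1.

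Odc1 went the other way, at 0.637 and 0.581 in B-MF against 0.519 and 0.515 in Mo-MF, and its positive cells were 41.6% and 37.5% against 36.1% and 36.1%. The B-MF libraries did not overlap with the Mo-MF libraries, as was the case for 69.6% of all genes tested, and the difference of 0.20 ± 0.057 was called (limma, adjusted p = 0.0240). This call was lost in cells without neutrophil-like clusters (0.14, limma, adjusted p = 0.0932), in monocyte/macrophage-like clusters alone (0.05, limma, adjusted p = 0.537), without the first Mo-MF library (0.20, limma, adjusted p = 0.143) and without the second (0.19, limma, adjusted p = 0.164). Neutrophil-like cells of Mo-MF had an Odc1 level of 0.268 ± 0.0187 (SD, n = 2), below the 0.558 ± 0.0056 of the monocyte/macrophage-like cells. Leaving out clusters under 10 cells in any library of the group, Odc1 was highest in dividing cells led by Cenpf, Ube2c and Birc5, at 1.15 and 1.08 (B-MF) and 0.838 and 0.723 (Mo-MF). The 11 and 9 stromal/epithelial-like cells of B-MF had 1.55 and 2.11.

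**Figure D1:**
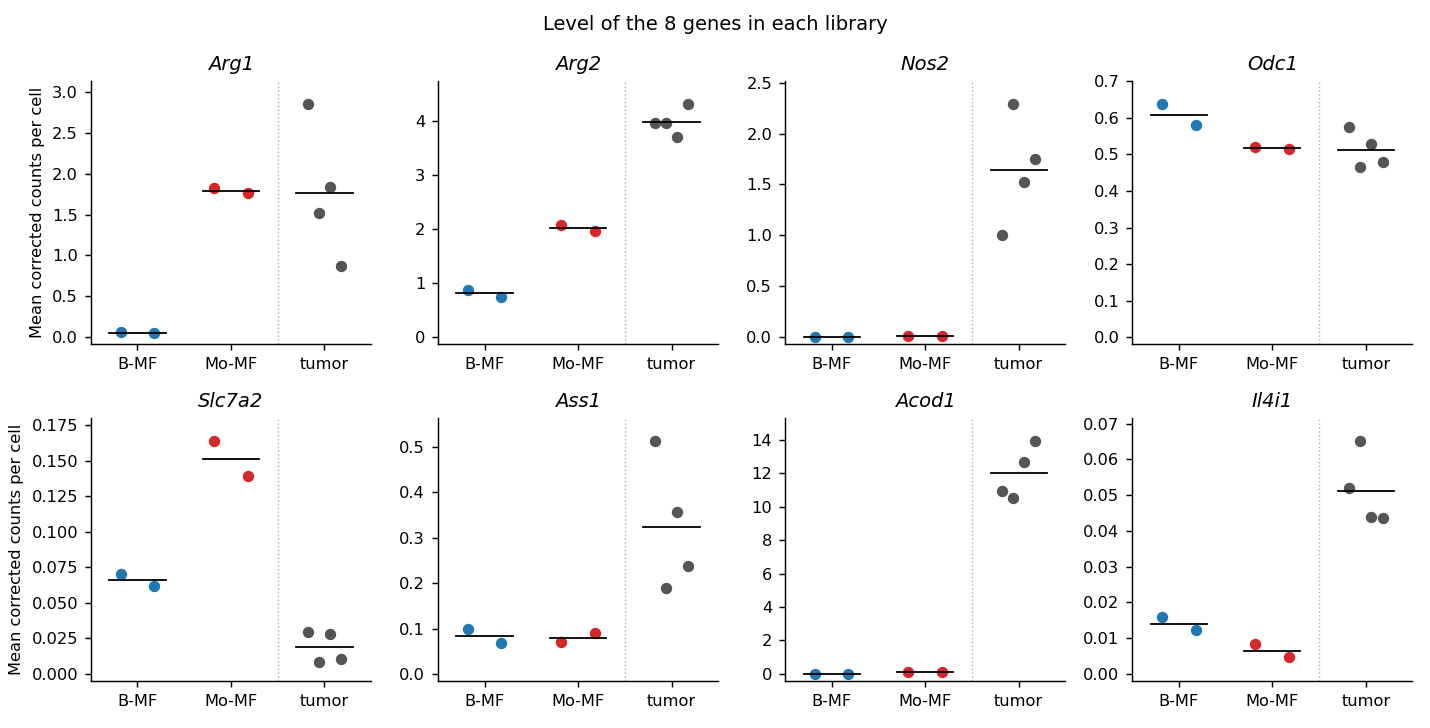
Mean corrected count per cell (vertical axis, one panel per gene) of the 8 genes in each library (dots) of B-MF, Mo-MF and tumor, with the group mean as a line; the dotted line separates the cultured from the tumor cells, which were corrected separately. Arg1 and Arg2 lie higher in both Mo-MF libraries than in both B-MF libraries, and Acod1 lies between 10.5 and 13.9 in the tumor libraries.

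The remaining 4 genes were below the filter in the cultures. Nos2 was positive in 0 of 5237 and 0 of 5326 B-MF cells, where a floor of 3 counts limits the share of cells with a read of Nos2, not of cells that express it, to 0.0573% and 0.0563%. It was positive in 0.825% (95% Clopper-Pearson interval 0.590% to 1.12%) and 0.835% (0.610% to 1.12%) of Mo-MF cells. With the floor of 3 counts per B-MF library, its level in Mo-MF was at least 28.8-fold higher. Acod1 was read at 0.0202 and 0.0227 (B-MF) against 0.113 and 0.101 (Mo-MF). Neither gene overlapped between the groups, as for 64.4% of all genes with no filter. In a limma fit with no filter, in which 23.1% of 15855 genes were called in either direction, Acod1 was lower in B-MF by 0.77 ± 0.0374 (adjusted p = 0.00421). Nos2 was at 0 in both B-MF libraries, so the size of its fitted difference is set by the 0.1 that is added and is not given.

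The Mo-MF signal of Nos2 and Acod1 lay in the neutrophil-like clusters. Those clusters held 90.1% to 92.1% of the Acod1 counts and 91.5% to 94.4% of the Nos2 counts of the Mo-MF libraries, and 3.99% to 4.57% of the Arg1 counts. The 12 neutrophil markers summed to 173 and 137 for Mo-MF and to 4.86 and 4.56 for B-MF, where 4 of them were at 0. Leaving those clusters out, with no filter, turned the Acod1 difference to 0.13 ± 0.0273, not called (limma, adjusted p = 0.0594), beside 21.5% of 15834 genes called. Acod1 was then at 0.0197 and 0.0227 (B-MF) against 0.0124 and 0.00883 (Mo-MF), and Nos2 at 0 and 0 against 0.00161 and 0.00103. In monocyte/macrophage-like clusters alone Acod1 stood at 0.0228 (B-MF) and 0.00913 (Mo-MF). These clusters are chiefly numbers 0 and 1 for B-MF but numbers 2, 3 and 4 for Mo-MF, so the same name covers different cells in the 2 groups.

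Neither Ass1 nor Il4i1 was called. Ass1 was read at 0.0989 and 0.0683 (B-MF) against 0.0693 and 0.0896 (Mo-MF), overlapping ranges (0.03 on the log2 scale, limma with no filter, adjusted p = 0.900). Il4i1 was at 0.0158 and 0.0122 (B-MF) against 0.00825 and 0.00464 (Mo-MF), higher in both B-MF libraries but not called (0.10, limma with no filter, adjusted p = 0.116). Its positive cells were 1.34% and 0.995% against 0.557% and 0.390%.

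**Figure D2:**
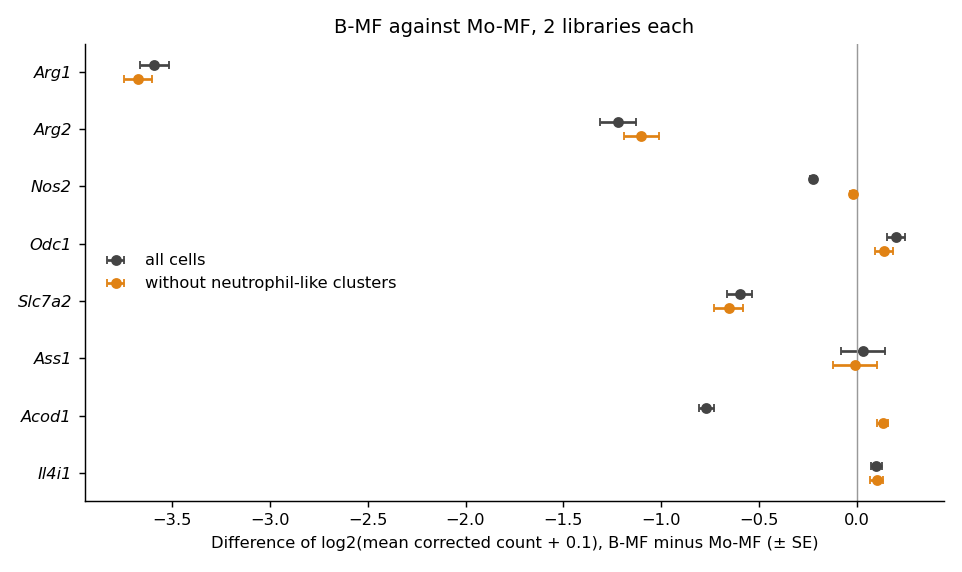
Log2 difference, B-MF minus Mo-MF, of the 8 genes in the limma fit with no filter (points, bars are SE), for all cells and without the neutrophil-like clusters. Values left of 0 are lower in B-MF. Acod1 moves from −0.77 in all cells to 0.13 without the neutrophil-like clusters, and Arg1 from −3.59 to −3.67. The points of Nos2, at 0 in both B-MF libraries, are set by the added 0.1 and are not read as a size.

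Within Mo-MF, Arg1 was uneven over cells. The 10% of cells with the most Arg1 held 92.3% and 90.8% of its counts, whereas for Arg2 they held 39.5% and 40.0%. The highest single cells reached 199 and 114 corrected counts of Arg1, against a median of 3 in positive cells. A cluster led by Arg1, Bex1 and Pdpn, with 1144 and 1279 Mo-MF cells, had a level of 4.10 and 3.91 and held 53.1% and 52.7% of the Arg1 counts, and also 46.7% and 45.3% of the Slc7a2 counts. Its osteoclast markers, of which 3 of 5 (Acp5, Ctsk and Atp6v0d2) were raised, had a mean log2 ratio to the average of 0.938, while its 10 macrophage markers, 5 of them raised, had −0.066. Arg1 is one of the genes that name this cluster, so its level there is a description. A cluster led by Mmp14 and Apoe had Arg1 at 1.69 and 1.59, and one led by Ly6a and Ccl7 at 0.466 and 0.426. The levels of the 3 clusters keep the same order in both libraries. In B-MF, Acod1 was highest per cell in a small cluster led by the interferon-induced genes Rsad2 and Cxcl10, with 44 and 38 cells, at 0.432 and 0.816. It held 17.9% and 25.6% of the B-MF Acod1 counts, while most lay in the large clusters 0, with 38.7% to 52.9%, and 1, with 15.7% to 28.3%.

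In the tumor libraries Acod1 was the most abundant of the 8 genes, with means of 10.97, 10.5, 12.7 and 13.9 in libraries 2, 3, 4 and 5 (12.03 ± 1.58 SD, n = 4). Arg2 followed at 3.98 ± 0.246, with 3.96, 3.96, 3.71 and 4.31. Arg1, with an SD smaller than that of Acod1 but the largest relative to its mean among Acod1, Arg2, Arg1 and Nos2, was at 2.85, 1.52, 1.83 and 0.873 (1.77 ± 0.824). Nos2 stood at 1.01, 2.29, 1.53 and 1.75 (1.64 ± 0.531), so library 2, which had the largest share of monocyte/macrophage-like cells, was the highest for Arg1 and the lowest for Nos2. The part of cell composition in this was not tested. The lower levels were 0.512 ± 0.05004 for Odc1, 0.325 ± 0.144 for Ass1, 0.0512 ± 0.0101 for Il4i1 and 0.0191 ± 0.0112 for Slc7a2. In order of level, Acod1 and Arg2 stand apart from all others in each library, while the order of Arg1 and Nos2 changed between libraries. Odc1 was above Ass1 in each library, although their ranges over the libraries overlap. Positive cells were 59.8% to 73.4% for Acod1, 83.3% to 88.0% for Arg2, 24.8% to 38.5% for Nos2 and 7.4% to 16.4% for Arg1. A cell was positive for 2.42, 2.45, 2.43 and 2.40 of the 8 genes on average in libraries 2 to 5.

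Cell class divided the genes. In each library the neutrophil-like cells had more Acod1, Arg2 and Nos2 than the monocyte/macrophage-like cells, whereas Arg1, Ass1, Odc1, Slc7a2 and Il4i1 were lower there. Over the 5827 genes whose mean reached 0.1 in the tumor libraries, 19.8% were higher in the neutrophil-like cells in all 4 libraries and 70.5% were lower, so the second direction was the usual one. Slc7a2 and Il4i1 are under that mean. Acod1 was at 21.1 ± 4.27 (neutrophil-like) and 4.003 ± 0.879 (monocyte/macrophage-like), 4.29 to 7.79 times higher. Arg1 was at 3.68 ± 1.14 in monocyte/macrophage-like and 0.160 ± 0.0604 in neutrophil-like cells, 15.6 to 42.9 times higher in the first. Ass1 was at 0.589 ± 0.139 against 0.0289, and Arg2 at 3.05 ± 0.186 against 5.28 ± 0.591. These classes come from clustering the same cells, so their differences are described with no test, and the 8 genes were left out of the genes used to cluster.

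The share of cells with a transcript does not by itself show expression in droplet data, because free RNA or doublets can add reads of a gene. The part of either in these libraries was not tested. B-like tumor cells, which should lack Acod1, were positive for it in 87.5%, 42.3%, 61.3% and 38.5% of 8, 52, 75 and 109 cells. The monocyte/macrophage-like share was 40.7%, 42.7%, 48.3% and 43.5%, no higher than that in 2 of the 4 libraries. T/NK-like cells were positive in 10.5% to 23.1% and osteoclast-like cells in 0% to 10%, below the monocyte/macrophage-like share in all 4 libraries. The B-like and T/NK-like cells thus did not share 1 level. The mean level of monocyte/macrophage-like cells was 3.23, 3.36, 5.11 and 4.31. It was above the B-like level of 1, 2.16 and 1.80 in libraries 3, 4 and 5. In library 2 it was below the 10.5 of the 8 B-like cells. Per 100 counts of the neutrophil gene S100a9, monocyte/macrophage-like cells had 4.03 to 7.42 of Acod1 and neutrophil-like cells 2.52 to 4.37, with the first higher in each of the 4 libraries. For Nos2 the same ratio was 1.505 to 1.79 against 0.255 to 0.486, and for Arg2 3.62 to 6.69 against 0.790 to 1.05. Other classes, in libraries with at least 20 of their cells, had ratios as high for some genes. For Acod1 it was 2.24, 7.88 and 4.999 in B-like cells of libraries 3, 4 and 5. In T/NK-like cells of libraries 4 and 5 it was 11.54 and 19.8. The Acod1 ratio thus does not set monocyte/macrophage-like cells apart from B-like and T/NK-like cells. For Nos2 it was 0.129 to 0.204 in B-like cells, 0 and 3.30 in T/NK-like cells and 0 to 2.05 in dendritic-like cells. For Arg2 it was 1.097 to 3.11 in B-like cells, 2.99 and 16.5 in T/NK-like cells and 4.25 to 122.7 in dendritic-like cells, with 22 to 29 cells a library in the latter 2 classes. Osteoclast-like cells had so little S100a9, with means of 0.259 and 0.381, that their ratio is not given. The Nos2 share of monocyte/macrophage-like cells, 20.9% to 31.3%, was above the 1.83% to 12.5% of B-like cells in every library, as was the Arg2 share, 78.7% to 85.8% against 20.2% to 52%. Median corrected counts were 8493.5 to 8542 per monocyte/macrophage-like cell and 7481 to 7516 per neutrophil-like cell.

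**Figure D3:**
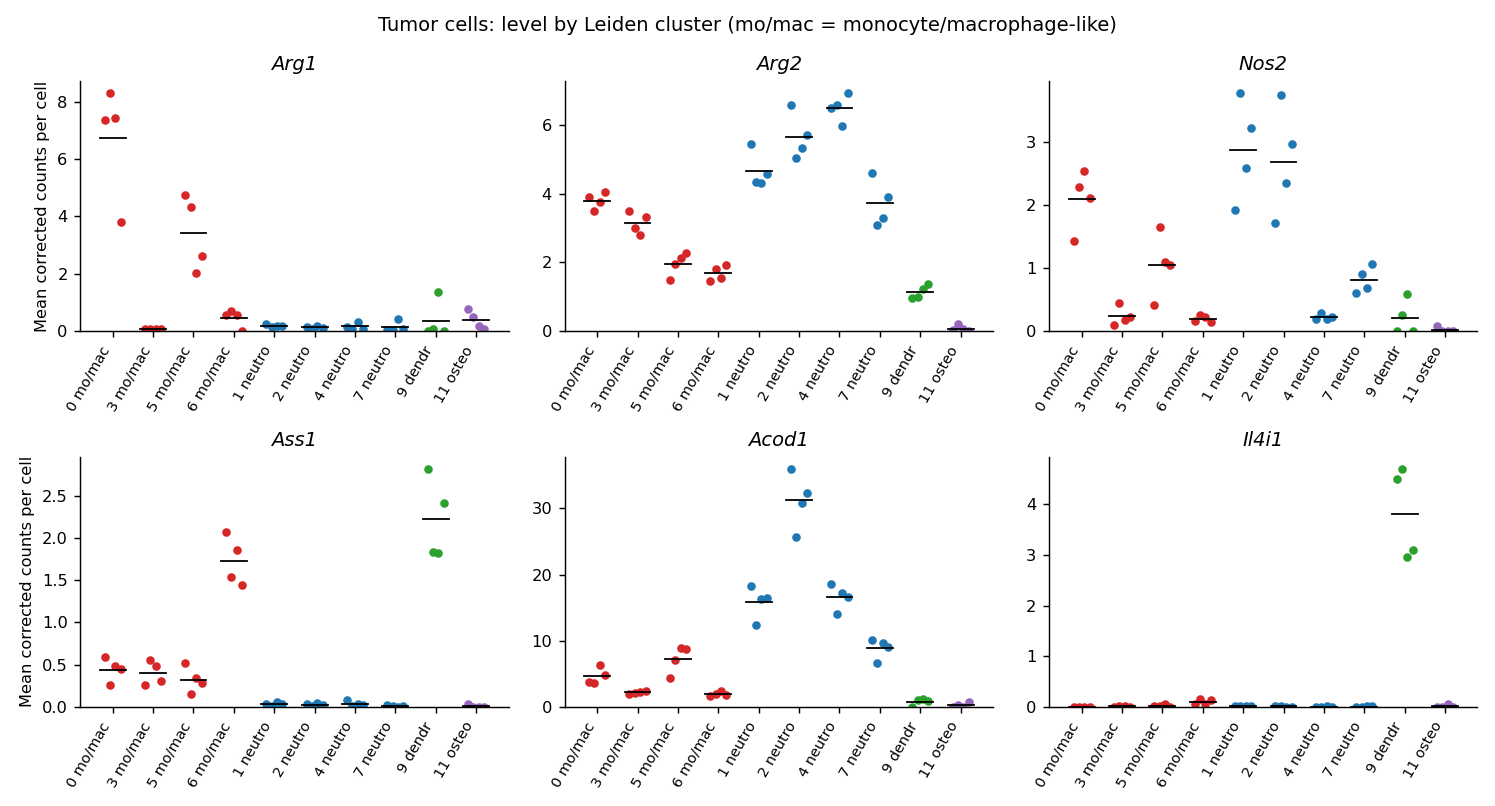
Mean corrected count per cell (vertical axis) of Arg1, Arg2, Nos2, Ass1, Acod1 and Il4i1 in 10 tumor clusters (horizontal axis), with a dot for each of 4 libraries and a line for their mean. Arg1 is highest in cluster 0, Acod1 in cluster 2 and Il4i1 in cluster 9.

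Leaving out clusters under 10 cells in any library, which left 10, Arg1 was highest in cluster 0, led by Sdc1, Arg1 and Inhba, at 7.36, 8.31, 7.42 and 3.82 in libraries 2 to 5, and next in cluster 5, led by the complement genes C1qc, C1qa and C1qb, at 4.75, 4.35, 2.04 and 2.61. Cluster 0 has the T cell marker Il7r and none of the monocyte/macrophage markers among its 10 leading genes, so its class rests on its other markers. In the Ccr2 cluster 3, Arg1 was between 0.062 and 0.078 in all libraries. Ass1 was highest in cluster 9, led by Ccr7, Fscn1 and Ccl22, at 2.82, 1.83, 1.82 and 2.41, and in cluster 6, led by Timd4 and H2-Eb1, at 2.07, 1.54, 1.86 and 1.44. Arg1 was low in cluster 6, with 0.553, 0.705, 0.571 and 0.014. Il4i1 was highest in cluster 9, the 103 cells of which had 4.50, 4.71, 2.95 and 3.10 and held 61.9% to 76.4% of the Il4i1 counts. Il4i1 is itself among the genes that lead that cluster.

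Among the neutrophil-like clusters, Acod1 was highest in cluster 2, led by Il23a, Acod1 and Ifit1, at 36.0, 25.6, 30.9 and 32.4, with 99.4% to 100% of cells positive. Nos2 was highest in cluster 1, led by Ciart and Ddit3, at 1.92, 3.78, 2.59 and 3.22, and close to that in cluster 2, at 1.71, 3.75, 2.34 and 2.97. In cluster 4, led by Steap4 and Cxcr2, Nos2 was at 0.198, 0.291, 0.186 and 0.222 while Arg2 was at 6.50 ± 0.395 and Acod1 at 16.6 ± 1.87. Over the 4 neutrophil-like clusters 1, 2, 4 and 7 the means were 2.88, 2.69, 0.224 and 0.815 for Nos2. In the same order they were 4.67, 5.66, 6.50 and 3.72 for Arg2, and 15.9, 31.2, 16.6 and 8.83 for Acod1. By these means all 3 genes were lower in cluster 7 than in clusters 1 and 2. Odc1 was at 1.14 in the osteoclast-like cluster of 71 cells, the highest of the 10 clusters, and at 1.63, 1.33, 2.92 and 1.12 in the 80 T/NK-like cells of libraries 2 to 5.

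Pairs of genes were compared over cells by odds ratios, computed within each library and given as a description with no test, since the points are cells of the same libraries and sparse counts, depth and cell class are shared by both genes. Of 28 pairs, 24 had at least 5 cells positive for both in every tumor library, and 9 had an odds ratio above 1 in all 4 libraries and 10 below 1 in all 4. Within monocyte/macrophage-like cells, 21 pairs had enough cells, 11 of them above 1 and 4 below 1 in all 4 libraries. There Nos2 was more frequent in cells with Arg1, in 39.1%, 58.5%, 55.8% and 55.3% of Arg1-positive and 15.5%, 24.96%, 23.4% and 20.8% of Arg1-negative cells in libraries 2 to 5. The odds ratio was 3.51 to 4.71, and 2.35 to 3.11 in cluster 0 alone. Arg1 and Slc7a2 reached 6.43 to 8.71 and Ass1 and Il4i1 3.52 to 7.88.

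Other pairs parted. Ass1 was in 25.8%, 11.3%, 20.6% and 20.8% of Arg1-positive and 38.3%, 28.4%, 35.1% and 31.5% of Arg1-negative monocyte/macrophage-like cells, an odds ratio of 0.328 to 0.576, and Nos2 and Ass1 had 0.470 to 0.815. The monocyte/macrophage-like class pools clusters that differ in these genes: Arg1 was highest in cluster 0 and low in cluster 6, where Ass1 was high. The part of this mixture in the odds ratios of the class was not tested. In cluster 0 alone 18 pairs had enough cells, 8 above 1 and 3 below 1 in all 4 libraries. In cluster 5 alone the numbers were 10, 5 and 2. Arg2 and Acod1 stood at 3.24 to 4.06 in monocyte/macrophage-like cells and 5.76 to 7.76 in all cells. The mixture of classes can turn a ratio: for Arg1 and Acod1 it was 0.644 to 0.924 in all cells and 1.24 to 2.35 in monocyte/macrophage-like cells. Nos2 and Acod1 had 2.28 to 4.98 in monocyte/macrophage-like cells, and in neutrophil-like cells 0.656 to 2.34, without a shared direction. In Mo-MF the same pair had 12.2 to 18.9 over all cells and 1.02 to 1.83 within neutrophil-like cells, and Arg1 and Slc7a2 had 1.57 to 1.60. In B-MF, Ass1 and Acod1 had 5.55 to 5.58, from as few as 10 cells positive for both.

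**Figure D4:**
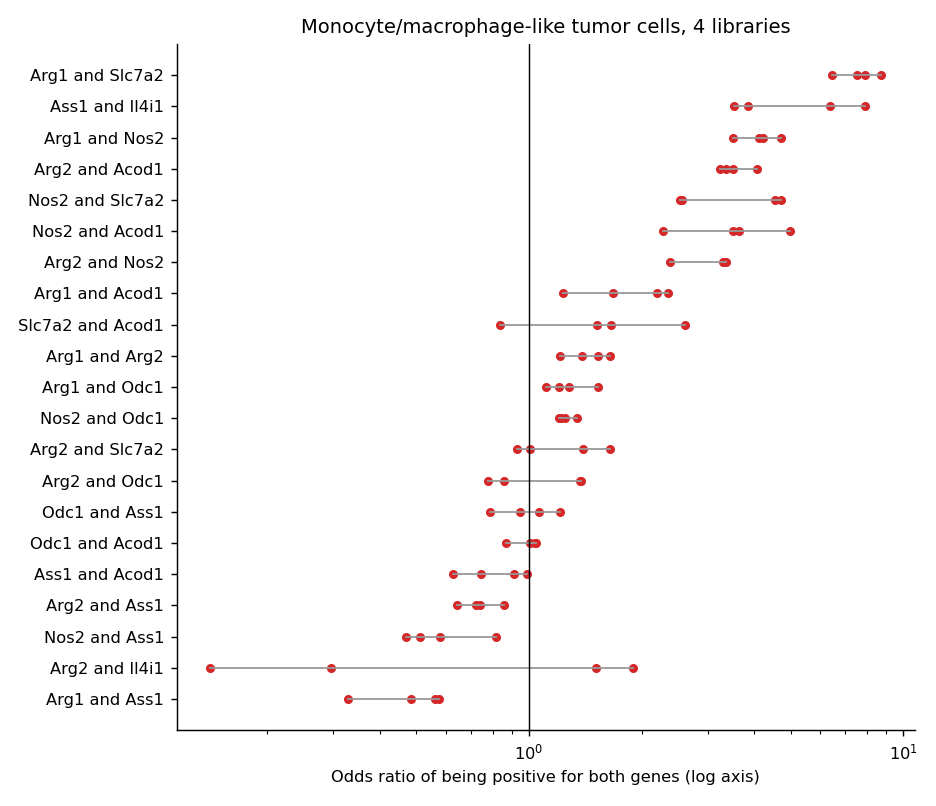
Odds ratio (log axis, 1 means no relation) of 21 pairs of the 8 genes over monocyte/macrophage-like tumor cells, with a dot for each of 4 libraries. Arg1 and Slc7a2 lie between 6.43 and 8.71, and Arg1 and Ass1 lie below 1 in all 4 libraries.

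Other genes were ranked by Pearson correlation of their levels with each member over cell clusters of libraries, 33 units in the cultures and 44 in the tumor, as a description only. In the cultures the most similar genes were Dennd2a (0.93) for Arg1, Csf3r (0.91), the G-CSF receptor of neutrophils, for Arg2, and Mmp12 (0.78) for Slc7a2. In the tumor libraries they were Appl2 (0.86) and Mmp12 (0.86) for Arg1, Ets2 (0.95) and Rab20 (0.95) for Arg2, Egln3 (0.94) and Ero1l (0.92) for Nos2, and Hdc (0.98), the histidine decarboxylase of granulocytes, for Acod1. Ass1 was closest to Syngr2 (0.92) and Odc1 to Rpl22l1 (0.84).

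Genes around the 8 were read from 6 lists of pathway genes. Of 87 tested, 29 were higher and 13 lower in B-MF, beside 22.6% and 16.9% of all genes, and the median difference was 0.02 over all genes. In arginine transport, the urea cycle and the proline and creatine branches, 4 of 10 were higher and 1 lower. Slc7a8, Gatm, Gamt and Prmt1 were higher, and Slc7a7 was lower. In nitric oxide cofactors 4 and 2 of 11 were higher and lower, and in polyamines 3 and 2 of 15. In itaconate, citrate and succinate handling 8 of 21 were higher and 1 lower. In tryptophan and phenylalanine breakdown and the aryl hydrocarbon receptor 3 of 6 were higher (Ahr, Ahrr and Tiparp) and 1 lower (Slc16a10). The other genes tested there were Wars and Arnt, so no enzyme of tryptophan breakdown was tested. Among factors known to act on the arginase, Nos2 and Acod1 genes 7 of 24 were higher and 6 lower. Slc7a8, an amino acid transporter, was at 1.75 and 1.70 (B-MF) against 0.980 and 1.03 (Mo-MF) (0.72, limma, adjusted p = 1.95e-05). Gch1, which makes the cofactor of nitric oxide synthase, was lower in B-MF by 0.49 (limma, adjusted p = 0.000173), and Gchfr, its feedback regulator, was higher by 0.77 (limma, adjusted p = 3.39e-05). Azin1, which protects ornithine decarboxylase from breakdown, was lower by 0.55 (limma, adjusted p = 0.000104), and Srm, the spermidine synthase, was higher by 0.29 (limma, adjusted p = 0.00746). Idh2 and Dlst, enzymes of the citrate cycle in mitochondria, were higher by 0.52 (limma, adjusted p = 0.000144) and 0.51 (limma, adjusted p = 0.000431). Tiparp and Ahrr, targets of the aryl hydrocarbon receptor, were higher by 0.99 (limma, adjusted p = 3.69e-06) and 0.81 (limma, adjusted p = 4.82e-05). Myc was at 0.414 and 0.399 in B-MF against 0.0700 and 0.0731 (1.56, limma, adjusted p = 2.20e-07). Il13ra1, a receptor chain for interleukin 13, was lower by 0.91 (limma, adjusted p = 1.92e-05). Its partner chain Il4ra, added after its values were seen, was higher, at 2.35 and 2.17 against 1.33 and 1.36 (0.71, limma, adjusted p = 3.35e-05). Gchfr and Myc reached the filter of 0.1 only through B-MF and Il13ra1 only through Mo-MF, so their being called is partly set by the filter. Without the neutrophil-like clusters 30 of the 87 were higher and 13 lower, beside 37.8% of 8600 genes called in either direction in that fit. Of these 30 and 13, 27 and 12 were called in the same direction over all cells. In that fit Il13ra1 was lower by 0.47 (limma, adjusted p = 0.000471).

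In the tumor libraries, all 18 genes of itaconate, citrate and succinate handling that reached a mean of 0.1 were lower in neutrophil-like cells in all 4 libraries, as were 70.5% of all genes. Acod1, whose substrate comes from that cycle, was the opposite. Among the factors known to act on the arginase, Nos2 and Acod1 genes, 10 of 22 were higher and 9 lower in neutrophil-like cells in all 4 libraries. Over all genes 19.8% were higher. In the other 4 lists, 1 of 7 (arginine transport, urea cycle and proline/creatine branches) and 2 of 7 (nitric oxide cofactors) were higher. So were 3 of 12 (polyamines) and 1 of 5 (tryptophan and phenylalanine breakdown and the aryl hydrocarbon receptor). In the same order, 5, 5, 9 and 4 were lower. The 5 genes of the last list were Wars, Slc16a10, Ahr, Arnt and Tiparp, so no enzyme of tryptophan breakdown was counted.

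At the starts of the genes, ATAC-seq peaks within 1000 bases were found in all 12 libraries for Arg1, Arg2, Odc1, Ass1 and Il4i1, a state shared by 48.2% of 21728 protein-coding genes, and in none for Acod1 and Slc7a2, as for 38.4%. Nos2 had a peak in 2 of 3 CSF1R+ and 2 of 3 CSF1R− BM libraries and in 0 of 6 spleen libraries. Its peaks had a fold enrichment of 4.80 to 6.08. Over all genes, 56.4% to 58.9% had a peak in a BM library and 50.1% to 51.6% in a spleen library. The share of genes with the same pattern as Nos2 was not computed. Within 250 bases Arg1 had no peak. Fold enrichment in BM and in spleen was 10.7 to 13.5 and 13.2 to 20.6 for Arg1. It was 18.8 to 25.4 and 16.7 to 25.7 for Arg2, and 12.8 to 13.7 and 15.9 to 18.1 for Odc1. Ass1 had 12.03 to 15.1 and 14.6 to 21.3. Il4i1 had 16.5 to 18.7 and 20.4 to 21.7 at the GENCODE start, within the locus it shares with Nup62 and Atf5. At its RefSeq start the range over both tissues was 3.72 to 8.24. A higher range in spleen was thus not particular to Arg1, and fold enrichment was not compared over all genes. The lists hold no read counts. The study's text gives an average number of reads per sample, but no depth for each library was found there. The depth behind each list is therefore unknown, and a missing peak is not taken as closed chromatin.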

How the data were processed

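For scRNA-seq, the authors counted transcripts of 10x 3′ libraries with Cell Ranger against mm10, required 1000 detected genes in a cell and applied SCTransform in Seurat. Each deposited value is the natural log of 1 plus a corrected count. Converted back, 100% of the values above 0 were whole within a relative 0.0001. They are not raw counts, so no count model was fitted, and the correction evens out depth between cells. Counted on the corrected values, 4 deposited tumor cells had fewer than 1000 detected genes. Gene numbers before the correction were not at hand, so these cells may have met the authors' minimum. For ATAC-seq, the authors aligned to mm10 with BWA and ran MACS on every library alone, and the deposited lists give a fold enrichment, a −log10 p-value and a −log10 q-value per peak.

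Libraries were grouped by their labels. The columns of the tumor table, numbered 2 to 5, show the group but not which of the 4 labelled samples each is. Corrected counts were averaged over the cells of a library, and log2 of the mean plus 0.1 was compared between B-MF and Mo-MF with limma (lmFit, then eBayes) where the mean over libraries reached 0.1. The threshold was a Benjamini-Hochberg adjusted p of 0.05. Data with independent normal noise were simulated on 8633 genes, with 50 planted differences of each size. Of those of 0.5 on the log2 scale 70% were found, and 100% of those of 1, 2 and 3. Unchanged genes made up 3.65% of the calls. Far more genes, 39.5%, were called in the deposited data, so these shares do not give the error rate there. Cells were clustered with the Leiden algorithm (20 neighbors, 30 principal components, 2000 variable genes without the 8 genes, resolution 0.5) and classes were named "-like" from marker lists; details of the naming rule and the promoter motifs were chosen after the data were seen. No doublets were removed, no doublet caller was run and cells were not thinned to a shared depth beyond the authors' correction. Odds ratios had 0.5 added to each of the 4 cell numbers. Same-numbered B-MF and Mo-MF libraries deviated together with a correlation of 0.126, and share only a number.

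The 8 genes and the pathway lists were chosen with earlier results of these data known. Beside the 8 genes, the text names pathway genes drawn from the 2 largest called differences in each direction per list, and the genes most similar to each member. Some genes that this rule would name are not reported here. Alternatives were other pseudocounts, filters, scaling and summaries, cells without other types, the replicate block, limma with trend, other resolutions, a minimum of 2 counts, other peak windows and q-values, and each library left out. Tests ran in R 4.3.3 with limma 3.58.1. Clustering used leidenalg 0.10.2, scikit-learn 1.9.0 and python-igraph 0.11.9, all other steps Python 3.11.15 with pandas 2.3.3, scipy 1.17.1 and numpy 2.4.6, and figures matplotlib 3.10.9.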

Additional observations from a re-analysis of the deposited data

How the results depend on the processing

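Of the differences of the 8 genes between B-MF and Mo-MF, 55 values under alternatives kept their direction and side of the threshold, 8 kept the direction but lost the call, and 2 reversed, both with no filter and without neutrophil-like clusters: Acod1 at 0.13 and Ass1 at −0.011, neither called. The number of the 8 genes called higher in B-MF, 1 as reported (Odc1), fell to 0 with no filter, without neutrophil-like clusters, without clusters of other types, with both no filter and no neutrophil-like clusters, and in monocyte/macrophage-like clusters only. The latter 2 alternatives were added after the data were seen. The number called lower rose from 3 to 5 with no filter, which admits Acod1 and Nos2, the latter at 0 in both B-MF libraries. Over all genes, 951 were lower in B-MF at a mean of at least 0.5, against 1458 as reported, with fewer genes tested.

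Leaving out 1 library in turn gave 1112 to 3854 genes higher and 863 to 2950 lower in B-MF, against 1955 and 1458, with the lone library of a group assumed to vary like the others. The 1112 came without Mo-MF replicate 2, the 3854 without B-MF replicate 2, the 863 without Mo-MF replicate 1 and the 2950 without B-MF replicate 1. The number of genes tested changed between these fits. When either Mo-MF library was left out, Slc7a2 fell below the filter and was not tested. With the replicate number as a block, 2238 of 8633 genes tested were higher and 1670 lower. Of the 8 genes 1 and 3 were, the same numbers as without it. As each number is shared by only 1 B-MF and 1 Mo-MF library, the block is not read as a pairing.

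In the tumor libraries, 79 of 80 level values moved by less than 1 SD; Il4i1 in monocyte/macrophage-like cells fell to 0.0132 at resolution 0.25. At a minimum of 2 corrected counts, 7 instead of 11 pairs had odds ratios above 1 in all 4 libraries in monocyte/macrophage-like cells, and the cause was not tested. With 2 libraries per culture group, the estimate of spread rests largely on the other genes.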

Other observations

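In the tumor libraries dendritic-like cells had Arg2 at 1.14 ± 0.196 (SD, n = 4 libraries) corrected counts per cell.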
